A study of Mus musculus with 119 samples.

Results

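Spry1, Spry2, Spry4, Spred1 and Spred2, 5 genes of the Sprouty and Spred family of ERK pathway inhibitors, were followed in mouse macrophages grown from bone marrow (BMDMs), in which the kinase cascade downstream of TLR4 had been interrupted at different steps. The 5 genes were taken by their symbols from a table of 18098 genes in 119 RNA-seq libraries. All cells came from mice of the C57BL/6(NIMR) strain, of an age not given in the labels, and were grown in L-cell conditioned medium, kept overnight in medium with little serum and then left alone or given LPS, the TLR4 ligand, at 100 ng/ml. WT cells gave 6 libraries each without LPS, at 0.5 h and at 1 h, and 4 at 2 h. Map3k8[D270A] cells, which make a kinase-inactive form of TPL-2 (the kinase that activates MKK1/2 after LPS), gave 6 libraries at each of the 4 times. Elk1-/-Elk4-/- cells, which lack a pair of ternary complex factors phosphorylated by ERK1/2, gave 4 libraries at each time. Nfkb1[SS/AA] cells, in which the NF-kB1 p105 protein cannot be cleaved on IKK signaling and TPL-2 is not released, gave 6 libraries each at 0, 0.5 and 1 h. WT cells were also given the MKK1/2 inhibitor PD0325901 at 0.1 µM, its solvent DMSO, or the RSK1/2 inhibitor RSKi47 at 2 µM, 10 min before LPS. PD0325901 gave 6 libraries each at both 0.5 h and 1 h of LPS and 3 each without LPS at 10, 40 and 70 min, DMSO gave 3 libraries at 10 min, and RSKi47 gave 4 libraries at 10 min without LPS and 3, 4 and 4 libraries at 0.5, 1 and 2 h of LPS.

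Sprouty and Spred proteins are membrane-associated inhibitors that share a cysteine-rich C-terminal domain and act on the Ras-Raf-ERK cascade below growth factor receptors. Sprouty proteins bind adaptors such as GRB2 and limit Ras or Raf activation, whereas Spred proteins carry an EVH1 domain and bring the Ras GTPase-activating protein neurofibromin to the membrane. Several family members are themselves induced by ERK signaling, which makes them negative feedback genes. In macrophages after LPS, ERK1/2 is activated through TPL-2 rather than through Ras.

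The region directly before the RefSeq start of each gene (250 bases, build GRCm38.p6) was read for Spry1, Spry2, Spred1 and Spred2, 4 of the 5 genes. The windows of Spry1 and Spry2 are shown because these genes gave the largest rise and the largest fall in WT cells. Capitals mark CG dinucleotides, of which each window holds 23, against a median of 6 over 32851 windows of the same length. The Spry1 window is chr3:37639697-37639946 on the + strand and the Spry2 window chr14:105896820-105897069 on the - strand.
Spry1: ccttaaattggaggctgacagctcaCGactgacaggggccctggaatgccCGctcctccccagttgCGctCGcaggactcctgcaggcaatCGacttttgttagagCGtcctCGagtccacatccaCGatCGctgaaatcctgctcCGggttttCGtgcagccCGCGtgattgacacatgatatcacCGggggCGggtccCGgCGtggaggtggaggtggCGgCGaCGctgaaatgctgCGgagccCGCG
Spry2: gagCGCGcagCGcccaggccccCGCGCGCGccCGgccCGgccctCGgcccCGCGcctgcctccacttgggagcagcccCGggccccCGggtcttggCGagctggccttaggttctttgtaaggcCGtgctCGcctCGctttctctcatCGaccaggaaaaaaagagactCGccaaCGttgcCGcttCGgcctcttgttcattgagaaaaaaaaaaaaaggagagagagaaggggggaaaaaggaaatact
No match was found in the 4 windows to the ETS core CCGGAA (in 12% of all windows), the AP-1 site TGANTCA (6.75%), the CRE TGACGTCA (1.55%), the EGR sites GCGTGGGCG and GCGGGGGCG (3.06%), the serum response element (1.47%) or the NF-kB site (7.25%), searched on both strands. These letters are therefore not in these 250 bases, and sites elsewhere in the loci were not examined. The Spred1 and Spred2 windows hold 31 and 12 CG dinucleotides. Spry1 lies at chr3:37639947-37644599, Spry2 at chr14:105891947-105896819, Spred1 at chr2:117121071-117182279 and Spred2 at chr11:19924442-20024026.

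All values below are normalized values on a log2 scale, and a difference is the difference of 2 group means on that scale. The transformation used is not known and may have drawn differences together, the values are not per length, so levels were not compared between genes, and the depth of the libraries is unknown. Groups were compared with limma, and a gene was called at a Benjamini-Hochberg adjusted p below 0.05 over all genes tested. The share of all tested genes called in the same comparison stands beside each count of these genes. Spry4 stayed below the level needed for testing, so 4 of the 5 genes were tested. The macrophage genes Adgre1, Csf1r, Cd68, Itgam, Lyz2, Mrc1 and Fcgr1 all had a mean of at least 10 on the linear scale in every group. Libraries of the Nfkb1[SS/AA] arm at 1 h (replicate 2) and of the RSKi47 arm at 2 h (replicate 4) stood farthest from the others of their groups, and differences from WT in these groups are also given without them. Since the labels list no WT libraries for the Elk1-/-Elk4-/-, Nfkb1[SS/AA] and inhibitor arms, they were set against the same WT libraries as the Map3k8[D270A] cells, and for these arms a difference of level from WT cannot be told apart from a difference between experiments. No group was given DMSO with LPS, and RSKi47 has no solvent group. In differences of the inhibitor arms from WT, inhibitor and solvent thus cannot be told apart. Since WT replicates 4 to 6 and 7 to 9 form separate sets, each set alone was also tried as control, and calls that this changed are given in each arm. At 2 h the second set holds 1 WT library, so values with it at that time assume that this library varies as the other groups do. The difference between an arm's LPS response and the WT response is free of any constant offset between experiments and is given as well. With RSKi47 this difference also holds time in the inhibitor, which was shorter in the cells without LPS than in those given LPS. In bulk RNA, a smaller share of expressing cells and less RNA per cell cannot be told apart.

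In WT cells the 4 tested genes changed at different times after LPS. Spry1 rose early and steeply and then fell back, Spry2 rose early and fell below its resting level by 2 h, and Spred1 and Spred2 rose from 1 h. Of the 4 tested genes, 2 rose at 0.5 h (11.6% of all tested genes were called), 4 rose at 1 h (46.8%), and 3 rose and 1 fell at 2 h (71.5%). The median difference of the 4 genes was 0.40, 0.69 and 0.95 at the 3 times, against 0.00, 0.00 and -0.02 over all tested genes.

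Spry1, an inhibitor of growth factor-driven ERK signaling, stood between 4.05 and 4.34 (median 4.23) in the 6 unstimulated WT libraries and between 4.88 and 5.59 (median 5.17) at 0.5 h. At 1 h it reached 7.33 to 7.88 (median 7.66). At 2 h the 4 libraries gave 5.54, 5.52, 5.56 and 5.59. The groups at each LPS time did not overlap with the unstimulated group. The differences were 1.00 ± 0.13 (SE, adjusted p = 2.9e-08), 3.40 ± 0.13 (adjusted p = 7.78e-30) and 1.34 ± 0.15 (adjusted p = 6.41e-12) at 0.5, 1 and 2 h.

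Spry2, which binds GRB2 and the ubiquitin ligase CBL, stood between 7.90 and 8.32 (median 8.14) without LPS and between 8.70 and 9.10 (median 8.77) at 0.5 h. It was at 8.53 to 8.71 (median 8.62) at 1 h and at 7.05, 7.00, 7.18 and 6.92 in the 4 libraries at 2 h. Every library at 0.5 and 1 h lay above, and every library at 2 h below, all resting libraries. The gene rose by 0.69 ± 0.07 (SE, adjusted p = 4.87e-12) at 0.5 h and by 0.49 ± 0.07 (adjusted p = 8.9e-09) at 1 h, and fell by 1.10 ± 0.07 (adjusted p = 2.72e-19) at 2 h.

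Spred1, whose human counterpart is mutated in Legius syndrome, stood between 12.18 and 12.58 (median 12.34) without LPS and between 12.21 and 12.65 (median 12.43) at 0.5 h. It was at 13.09 to 13.25 (median 13.18) at 1 h and at 13.72, 13.66, 13.88 and 13.80 at 2 h. The groups overlapped at 0.5 h and were separate from rest at 1 and 2 h, with differences of 0.09 ± 0.07 (SE, adjusted p = 0.472), 0.83 ± 0.07 (adjusted p = 1.86e-16) and 1.42 ± 0.07 (adjusted p = 2.09e-24). Spred2, its close relative, stood between 8.53 and 8.99 (median 8.74) without LPS and between 9.25 and 9.40 (median 9.31) at 1 h. Its 4 libraries at 2 h gave 9.32, 9.33, 9.43 and 9.20. These values were above all resting libraries, and the difference was 0.56 at both times (SE 0.08 at 1 h and 0.09 at 2 h, adjusted p = 1.34e-08 and 9.42e-08). At 0.5 h it was 0.11 ± 0.08 (adjusted p = 0.41). The other family members in the table, Spry3 and Spred3, were not called at 0.5 h, where they differed by 0.23 (95% interval 0.01 to 0.45, adjusted p = 0.187) and 0.22 (0.05 to 0.38, adjusted p = 0.072). Spry3 fell by 0.61 at 1 h (adjusted p = 4.26e-06) and by 1.06 at 2 h (adjusted p = 3.91e-11), and Spred3 fell by 0.35 at 2 h (adjusted p = 0.000541).

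**Figure D1:**
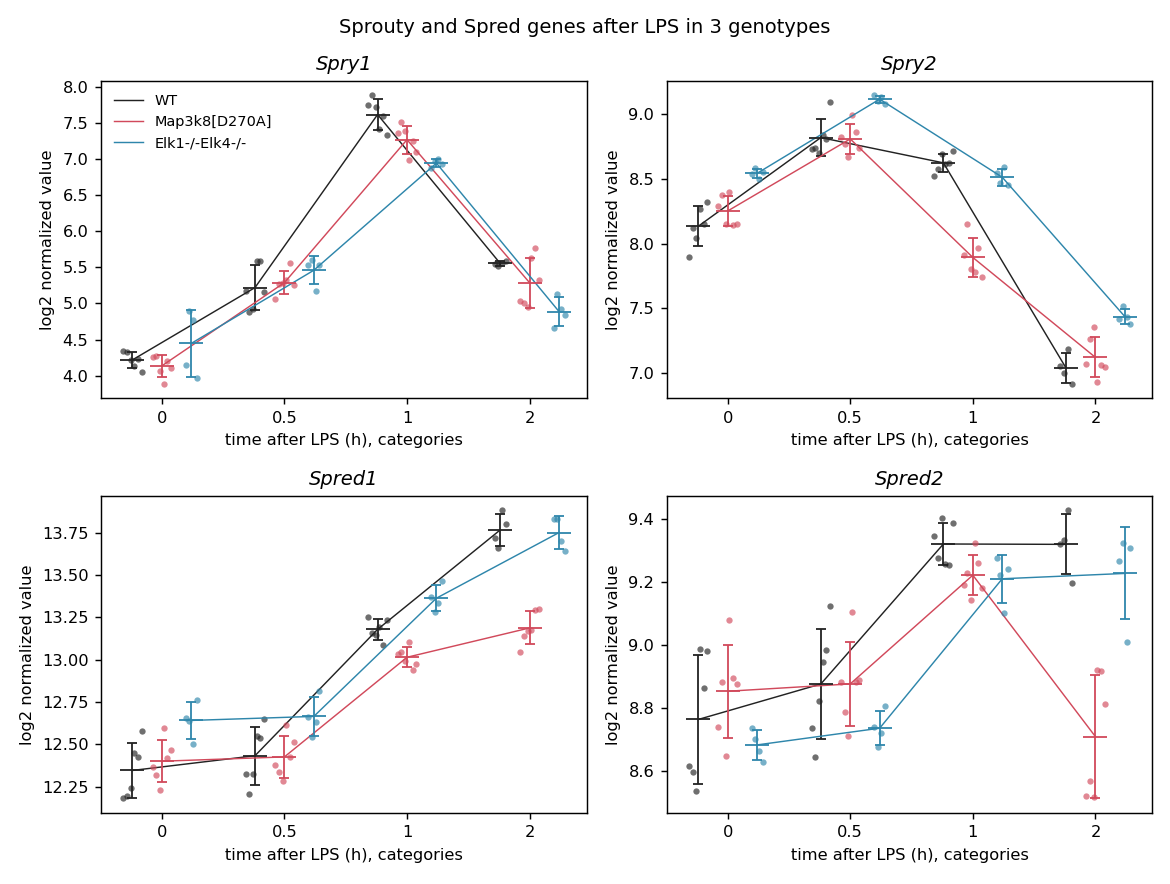
Log2 normalized value (vertical axis) of Spry1, Spry2, Spred1 and Spred2 by time after LPS in hours (horizontal axis, spaced as categories) in WT, Map3k8[D270A] and Elk1-/-Elk4-/- cells. Points are libraries, bars are means with SD and lines join the means; the Spry1 peak at 1 h is lowest in Elk1-/-Elk4-/- cells (mean 6.94), Spry2 at 1 h is lowest in Map3k8[D270A] cells (7.89), and Spred1 and Spred2 at 2 h are lowest in Map3k8[D270A] cells (13.19 and 8.71).

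Spry4 (chr18:38586247-38601347), which in many cells is a sensitive target of ERK signaling, was hardly detected. Its value lay between 0.42 and 0.57 in the unstimulated WT libraries and between 0.42 and 0.64 at 1 h of LPS. No group mean exceeded 0.69 apart from a pair of groups described with PD0325901 below, and the highest value in any library was 1.93. Without the filter on low values, the WT difference at 1 h was 0.08 (95% interval -0.01 to 0.18, adjusted p = 0.194). In that fit LPS responses were called in Elk1-/-Elk4-/- cells at 2 h (0.25, adjusted p = 0.00021), with RSKi47 at 1 h (0.22, adjusted p = 0.00839) and, downward, with PD0325901 at 0.5 and 1 h (-0.81 and -1.06), where the resting cells held the high values described below. No arm without PD0325901 differed from WT in level or response by an adjusted p below 0.05, and none of these values reached the level required for testing.

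Map3k8[D270A] cells were compared with WT cells to ask whether TPL-2 kinase activity is needed for the expression of these genes. Spry2 at 1 h, and Spred1 and Spred2 at 2 h, were lower without TPL-2 activity, and Spry1 was not called at any time with all replicates. Map3k8 itself, which carries a point mutation here and so gives no check of the labels, was at 8.84 ± 0.08 (SD, n = 6) without LPS, against 8.94 ± 0.08 in WT cells. The number of the 4 genes called was 0 without LPS (1.44% of all tested genes called), 0 at 0.5 h (1.37%), 1 lower at 1 h (9.79%) and 2 lower at 2 h (27.7%). None of the 4 genes had an unadjusted p below 0.05 in limma without LPS or at 0.5 h. The medians of the 4 genes at 1 and 2 h were -0.26 and -0.42, against 0.00 and 0.01 over all genes. At 2 h the summed linear value of 7 macrophage genes was 399430 to 446610, below WT (447315 to 484039), although Itgam and Fcgr1 were higher. The sum of 3 dendritic cell genes was 19.9 to 28.4 against 35.0 to 45.0. That of 6 glia and neuron genes was 1185 to 1297 against 1703 to 1836. The sum of 7 neutrophil and precursor genes overlapped with WT. The part of other cells in these differences was not tested.

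Spry2 in Map3k8[D270A] cells lay between 7.74 and 8.15 (median 7.86) at 1 h, below every WT library. The difference was -0.73 ± 0.07 (SE, n = 6 and 6, adjusted p = 1.74e-12). Whereas Spry2 was above its resting level at 1 h in WT cells, it had fallen by 0.36 (adjusted p = 1.02e-05, with 41.9% of genes called) in Map3k8[D270A] cells, although the libraries at 1 h overlapped with those at rest. The test of the difference between the LPS responses gave -0.85 ± 0.09 (adjusted p = 3.31e-09), and Spry2 was the 1 gene of the 4 called (2.02% of all genes called). WT replicates 4 to 6 with mutant replicates 1 to 3, and WT replicates 7 to 9 with mutant replicates 4 to 6, form separate sets in the data. Within them the level differed by -0.64 (adjusted p = 7.37e-08) and -0.82 (adjusted p = 3.47e-09). At 2 h, when Spry2 had fallen in both genotypes, the mutant libraries lay between 6.93 and 7.35 (median 7.07) and overlapped with WT, with a difference of 0.08 (95% interval -0.07 to 0.23, adjusted p = 0.455).

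Spred1 in Map3k8[D270A] cells lay between 13.04 and 13.30 (median 13.17) at 2 h, below every WT library, with a difference of -0.58 ± 0.07 (SE, n = 6 and 4, adjusted p = 8.82e-09). Spred2 lay between 8.52 and 8.92 (median 8.69), also below every WT library, with a difference of -0.61 ± 0.09 (adjusted p = 1.28e-07). At that time the LPS responses differed by -0.63 for Spred1 (adjusted p = 2.72e-06) and -0.70 for Spred2 (adjusted p = 8.74e-06), which were the 2 genes of the 4 called (15.5% of all genes). The level of Spred1 was lower in both sets of replicates, by 0.64 and 0.54 on the log2 scale. For Spred2 the level differed by -0.83 (adjusted p = 9.75e-12) in the first set and -0.31 in the second, and the responses by -1.0, a call, and -0.32 (adjusted p = 0.146), no longer one. The values of the second set rest on the 1 WT library at 2 h, and the difference between the sets was not tested. Within Map3k8[D270A] cells Spred2 differed from rest by -0.14 at 2 h (adjusted p = 0.0912), a call with time points paired by culture as replicate block (adjusted p = 0.0226) and in the first set alone (-0.22, adjusted p = 0.00301). Spry1 differed by -0.35 (95% interval -0.61 to -0.09, adjusted p = 0.081) at 1 h, where the groups overlapped, and this became a call without WT replicate 9 (-0.40, adjusted p = 0.0421). Within each set of replicates every mutant library lay below every WT library, with differences of -0.36 (adjusted p = 0.106) and -0.33 (adjusted p = 0.361) that were not calls. At 2 h it differed by -0.27 (-0.56 to 0.02, adjusted p = 0.176), with -0.54 (adjusted p = 0.00457, a call) in the first set and -0.02 against the 1 WT library of the second. Spred1 at 1 h differed by -0.16 (adjusted p = 0.107), which became a call when only the compared groups were fitted (adjusted p = 0.02). The Spred2 response at 1 h became a call in the set with WT replicates 4 to 6 (-0.33, adjusted p = 0.0398). At 0.5 h no response difference was called for the 4 genes (0.109% of all genes), and none had an unadjusted p below 0.05.

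Elk1-/-Elk4-/- cells address whether the ternary complex factors carry the signal to these genes. In them the value of Elk1 was 6.36 ± 0.18 (SD, n = 4) without LPS, against 9.14 ± 0.05 (n = 6) in WT cells, and that of Elk4 was 5.71 ± 0.17 against 7.72 ± 0.09. Spry1 was lower than in WT cells at 1 and 2 h, and Spry2 was higher at rest, at 0.5 h and at 2 h. Of the 4 genes, 2 were higher without LPS (51.8% of all genes called), 2 higher at 0.5 h (44.4%), 1 higher and 1 lower at 1 h (53.4%) and 1 higher and 1 lower at 2 h (50.8%). The medians of the 4 genes were 0.26, 0.24, -0.11 and -0.05 at the 4 times, against 0.02 or less over all genes, and the shares called are near those of all genes. Elk1-/-Elk4-/- cultures also held far more RNA of 7 neutrophil and precursor genes than any other arm. Their summed linear value was 1050.1 to 1474 without LPS and 1398 to 1619 at 1 h, against 81.4 to 146 and 83.4 to 213 in WT cells, with 5 of the 7 genes at 10 or more on the linear scale against 4 in WT cells. S100a9 stood at 8.94 against 5.17 and Ngp at 8.21 against 4.18 without LPS, and the early granule genes Elane and Mpo at 0.42 against -0.13 and 1.91 against 0.72. The macrophage sum was 338057 to 358989 without LPS, below every WT library (396114 to 452992). Lyz2, its largest part, stood at 17.57 against 18.09, and Csf1r and Itgam were lower too. Adgre1 (15.36 against 15.18), Cd68 (15.36 against 15.26), Mrc1 (14.09 against 13.76) and Fcgr1 (12.81 against 12.31) were higher. The sum of 5 T and B cell genes was 11.3 to 16.1 against 8.90 to 9.91, with none of the 5 at 10. The part of other cells in the differences of this arm was not tested.

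Spry1 gave 4.15, 4.90, 4.77 and 3.96 in the 4 Elk1-/-Elk4-/- libraries without LPS, 6.87, 6.97, 7.00 and 6.93 at 1 h, and 4.66, 5.13, 4.92 and 4.84 at 2 h. At rest the values scattered on both sides of WT, and at 1 and 2 h all were below WT. The resting difference of 0.23 (adjusted p = 0.187) became a call without Elk1-/-Elk4-/- replicate 4 (0.39, adjusted p = 0.0355). The differences of level were -0.67 ± 0.15 (SE, adjusted p = 0.000114) at 1 h and -0.67 ± 0.16 (adjusted p = 0.000431) at 2 h. The difference between the responses was -0.90 at both times (SE 0.21 and 0.22, adjusted p = 0.00893 and 0.00203). At 1 h it was no longer called without Elk1-/-Elk4-/- replicate 2 (-0.76, adjusted p = 0.0874) or replicate 3 (-0.81, adjusted p = 0.0714), the libraries with the high resting values. It was -0.81 (adjusted p = 0.172) with WT replicates 7 to 9 as control, and with WT replicates 4 to 6 the level at 0.5 h became a call (0.47, adjusted p = 0.0171, against 0.24 with all).

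Spry2 gave 8.54, 8.59, 8.50 and 8.55 without LPS and 9.15, 9.11, 9.13 and 9.08 at 0.5 h in Elk1-/-Elk4-/- cells. It gave 8.54, 8.47, 8.59 and 8.45 at 1 h and 7.42, 7.51, 7.43 and 7.38 at 2 h. The resting and 2 h libraries were all above WT, and those at 0.5 and 1 h overlapped with WT. The level was higher by 0.41 (SE 0.07, adjusted p = 8.4e-06) without LPS, by 0.30 (adjusted p = 0.00104) at 0.5 h and by 0.40 (adjusted p = 5.91e-05) at 2 h, and the difference at 1 h was -0.11 (95% interval -0.26 to 0.04). Set against its own resting level, the Spry2 response at 1 h differed from WT by -0.52 ± 0.11 (adjusted p = 0.00223), a call lost with WT replicates 7 to 9 as control (-0.43, adjusted p = 0.0848). That control also lost the call at 0.5 h (0.20, adjusted p = 0.0601). Spry1 and Spry2 were the 2 genes called in responses at 1 h (1.35% of all genes), Spry1 and Spred1 at 2 h (16.9%), and none at 0.5 h (0.0589%), where none had an unadjusted p below 0.05.

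Spred1 was higher by 0.30 without LPS (adjusted p = 0.000659), by 0.23 at 0.5 h (adjusted p = 0.00829) and by 0.18 at 1 h (adjusted p = 0.0303) in Elk1-/-Elk4-/- cells, and differed by -0.02 at 2 h (95% interval -0.18 to 0.15). The libraries overlapped with WT without LPS and at 0.5 h. The call at 0.5 h was lost without Elk1-/-Elk4-/- replicate 4 (adjusted p = 0.0626). The call at 1 h was lost without WT replicate 8 (adjusted p = 0.0621) or Elk1-/-Elk4-/- replicate 1 (0.0635) or 4 (0.108). Its response at 2 h was smaller by 0.31 (-0.31, adjusted p = 0.039), a call lost without WT replicate 4 (adjusted p = 0.0831), 6 (0.155) or 7 (0.053) or without Elk1-/-Elk4-/- replicate 1 (0.0654) or 4 (0.198). With WT replicates 7 to 9 as control the level calls without LPS (0.16, adjusted p = 0.0866) and at 0.5 h (0.09, adjusted p = 0.401) were lost, and the response difference at 2 h was -0.21 against the 1 WT library of that set. When only the compared groups were fitted, the calls at 0.5 h (adjusted p = 0.0598) and for the response (0.0753) were lost, and the latter also with no filter on low values (0.0551) and with quantile normalization (0.0612). Spred2 was not called at any time with all WT libraries, with differences between -0.14 and -0.08. It was called with WT replicates 7 to 9 as control, without LPS (-0.26, adjusted p = 0.0176) and at 0.5 h (-0.28, adjusted p = 0.0141).

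Nfkb1[SS/AA] cells showed the lowest mean of Spry1 at 1 h among the 6 arms. Nfkb1 RNA, in which the mutation changes only codons, was at 11.35 without LPS against 11.33 in WT cells. All 4 tested genes were lower than in WT cells at 1 h (42.5% of all genes called), against 1 lower without LPS (32%) and 1 lower at 0.5 h (32.3%). The median of the 4 genes at 1 h was -0.38, against -0.01 over all genes. The neutrophil and precursor sum at 1 h was 154 to 325, against 83.4 to 213 in WT cells, and its part was not tested. Spry1 lay between 5.65 and 6.31 (median 6.20) at 1 h, below every library of the other arms at that time. The difference from WT was -1.51 ± 0.11 (SE, n = 6 and 6, adjusted p = 2.36e-21), and the LPS response was smaller by 1.68 (-1.68 ± 0.16, adjusted p = 6.1e-15). Without replicate 2 the difference from WT was -1.54. Spry1 still rose within the arm, by 1.71 ± 0.11 (44.4% of genes called).

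Spry2 in Nfkb1[SS/AA] cells lay between 8.07 and 8.53 (median 8.40) at 1 h, Spred1 between 12.62 and 13.07 (median 12.99) and Spred2 between 8.25 and 9.09 (median 8.95). None of these groups overlapped with WT. The differences from WT were -0.30 (adjusted p = 0.00049), -0.24 (adjusted p = 0.00144) and -0.46 (adjusted p = 1.22e-06). Replicate 2 was the lowest library for Spred1 and Spred2, and without it the differences were -0.34, -0.17 (adjusted p = 0.0226) and -0.34 (adjusted p = 0.000115). Spred1 was already lower without LPS (-0.20, adjusted p = 0.00893) and at 0.5 h (-0.25, adjusted p = 0.00124), with overlap between the groups at both times, and its response at 1 h differed from WT by -0.03 (95% interval -0.21 to 0.15). The call without LPS was lost when WT replicate 9 was left out (adjusted p = 0.0525). With WT replicates 4 to 6 as control both calls were lost (-0.07, adjusted p = 0.538, and -0.10, adjusted p = 0.297). In responses at 1 h, 3 of the 4 genes were lower (6.07% of all genes). Besides Spry1 these were Spry2 (-0.41, adjusted p = 0.00533) and Spred2 (-0.41, adjusted p = 0.0128). The Spry2 call was lost without Nfkb1[SS/AA] replicate 5 (-0.31, adjusted p = 0.054), and the Spred2 call without Nfkb1[SS/AA] replicate 2 (-0.28, adjusted p = 0.156), WT replicate 4 (adjusted p = 0.0534) or WT replicate 6 (adjusted p = 0.0764), or when only the compared groups were fitted (adjusted p = 0.199). Neither was called with WT replicates 7 to 9 as control (-0.32, adjusted p = 0.251, and -0.21, adjusted p = 0.73), whereas the level of Spry2 at 0.5 h was (-0.23, adjusted p = 0.0442). At 0.5 h no response differed by an adjusted p (0.309% of all genes), and 1 of the 4 genes had an unadjusted p below 0.05.

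PD0325901 blocks ERK1/2 activation by MKK1/2 from all upstream sources. At 0.5 h of LPS none of the 4 genes was called against WT (29.4% of all genes), and 1 had an unadjusted p below 0.05. That gene, Spred1, differed by -0.14 (adjusted p = 0.0915) and was called without WT replicate 5 (-0.18, adjusted p = 0.0278). With WT replicates 7 to 9 as control Spry1 (-0.38, adjusted p = 0.0338, against -0.15 with all) and Spred1 (-0.28, adjusted p = 0.00219) were called, and with quantile normalization Spred1 was (-0.17, adjusted p = 0.0203). At 1 h all 4 were lower (35.7%), with a median of -0.49 against -0.01 over all genes. Spry1 lay between 6.59 and 6.72 (median 6.69) at 1 h and Spry2 between 7.82 and 8.13 (median 8.0). Both groups were below every WT library. The differences were -0.95 ± 0.11 (SE, n = 6 and 6, adjusted p = 2.68e-11) for Spry1 and -0.63 ± 0.07 (adjusted p = 1.37e-11) for Spry2. Spred1 lay between 12.87 and 13.02 (median 12.90) and Spred2 between 8.94 and 9.05 (median 8.97), again below all WT libraries, with differences of -0.26 (adjusted p = 0.000835) and -0.34 (adjusted p = 0.000462). The summed linear value of 7 neutrophil and precursor genes was 305 to 448 in this group against 83.4 to 213 in WT cells at 1 h. It was also 185 to 303 in DMSO cells and 156 to 270 with PD0325901 for 10 min, against 81.4 to 146 in resting WT cells. The early granule genes of that list, Elane and Mpo, stood at -0.09 and 0.79 at 1 h. The sum of 4 endothelial genes, of which only Kdr reached 10, was 266 to 366 at 1 h against 132 to 228 in WT cells, and 379 to 413 in DMSO cells against 151 to 255 at rest. The part of such cells in the results was not tested.

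**Figure D2:**
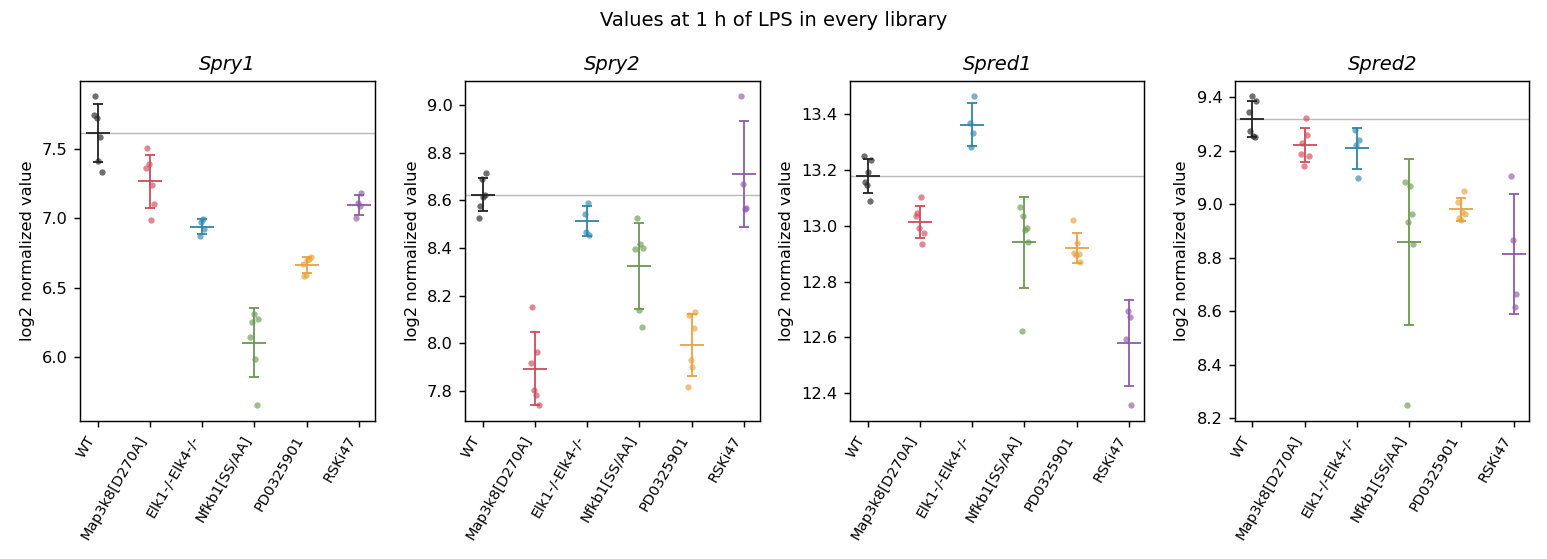
Log2 normalized value (vertical axis) of Spry1, Spry2, Spred1 and Spred2 at 1 h of LPS in the 6 arms (horizontal axis). Points are libraries, bars are means with SD, and the grey line is the WT mean; Spry1 falls in the order WT, Map3k8[D270A], RSKi47, Elk1-/-Elk4-/-, PD0325901 and Nfkb1[SS/AA] (7.62 to 6.10), Spry2 is lowest with Map3k8[D270A] and PD0325901 (7.89 and 7.99), and the Spred genes are lowest with RSKi47 (12.58 and 8.81).

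Without LPS, none of the 4 genes was called between 10 min of PD0325901 and DMSO, with differences from -0.08 to -0.01 (0% of all genes called by limma, and 245 of 11971 genes with an unadjusted p below 0.05). DMSO cells in turn were compared with untreated WT cells, where none of the 4 genes was called (23.6% of all genes) and 1 had an unadjusted p below 0.05. That gene, Spry2, was at 8.35, 8.39 and 8.35 in DMSO cells, above all WT libraries, with a difference of 0.23 (adjusted p = 0.0513). It was called without WT replicate 7 (0.26, adjusted p = 0.0364) or WT replicate 9 (0.27, adjusted p = 0.0225), and with WT replicates 4 to 6 as control (0.34, adjusted p = 0.00752).

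With longer time in PD0325901, Spry1 and Spry2 moved in opposite directions. DMSO was sampled only at 10 min, so the inhibitor and time in culture cannot be told apart here. Spry1 gave 4.28, 4.20 and 4.13 at 10 min, 4.99, 5.24 and 4.98 at 40 min, and 5.37, 4.88 and 4.97 at 70 min. Spry2 gave 8.38, 8.30 and 8.34 at 10 min, 7.96, 7.84 and 7.69 at 40 min, and 7.61, 7.46 and 7.19 at 70 min. No later library of either gene overlapped with those at 10 min. Spry1 rose by 0.86 at 40 min and 0.87 at 70 min (SE 0.16, adjusted p = 9.1e-05 and 4.68e-05), and Spry2 fell by 0.51 and 0.92 (SE 0.10, adjusted p = 0.000537 and 1.66e-11). At 40 min 1 gene of the 4 was higher and 1 lower (3.58% of all genes), and at 70 min 1 was higher and 2 lower (6.09%). The third call at 70 min was Spred1, at 11.86, 11.95 and 11.92 against 12.21, 12.21 and 12.26, a difference of -0.32 (adjusted p = 0.0172). It was lost without PD0325901 replicate 1 (adjusted p = 0.166), 2 (0.0918) or 3 (0.145).

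The same 6 libraries held the highest Spry4 values of the series, 1.34, 1.29 and 1.14 at 40 min and 1.93, 1.39 and 1.16 at 70 min, against 0.44, 0.43 and 0.43 at 10 min. Without the filter on low values these differences were 0.82 (adjusted p = 2.09e-16) and 1.06 (adjusted p = 1.36e-22). The genes most like Spry4 over the 25 group means, Sparcl1, Olig1 and Mest, are known from other tissues, Olig1 as a transcription factor of oligodendrocytes. Mean Olig1 was 3.45 at 40 min and 4.42 at 70 min, against 0.75 at 10 min and 0.77 in resting WT cells. Sparcl1 was at 3.31 and 4.91, against 0.76 and 0.66. The glia and neuron genes Gfap, Sox10, Snap25 and Syt1 stayed at or below -1.88 in the same groups. The summed value of all 6 genes of that list, nearly all of it from Mbp (10.43 and 10.39 in these groups, 10.51 in resting WT cells), was 1348 to 1452 at 40 min and 1318 to 1376 at 70 min, against 1272 to 1315 at 10 min and 1364 to 1564 in resting WT cells. The neutrophil and precursor sum was 343 to 440 at 40 min and 344 to 354 at 70 min. The part of RNA from other cells in the values of Spry1, Spry2 and Spry4 was not tested.

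**Figure D3:**
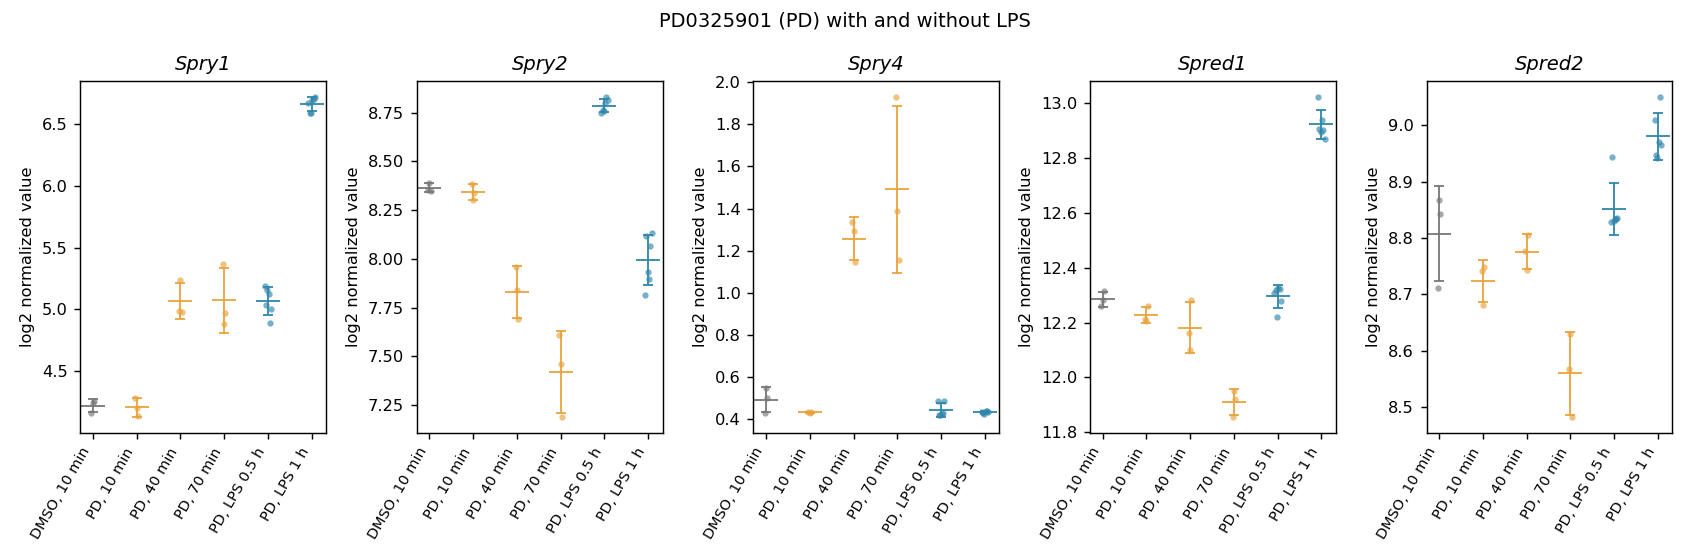
Log2 normalized value (vertical axis) of the 5 genes in cells given DMSO or PD0325901 (PD), without LPS (10, 40 and 70 min) or with LPS for 0.5 or 1 h (horizontal axis). Points are libraries and bars are means with SD; Spry4 lies above 1 only in the 6 libraries at 40 and 70 min without LPS, where Spry1 is also higher (mean 5.07 at both times) and Spry2 lower (7.83 and 7.42).

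The LPS response under PD0325901 depended on the resting cells it was measured from. Against PD0325901 for the same total time, the Spry1 response differed from that of WT cells by -1.0 at 0.5 h (adjusted p = 5.49e-05, with 1.49% of genes called) and by -1.81 at 1 h (adjusted p = 4.35e-14, with 3.58%), and Spry1 was the 1 gene of the 4 called at each time. With WT replicates 4 to 6 as control the first of these was -0.70 (adjusted p = 0.0653). Against PD0325901 for 10 min, Spry1 rose by 0.86 at 0.5 h, and its response differed from WT by -0.14 (adjusted p = 0.827) at that time and by -0.94 (adjusted p = 0.000137) at 1 h. The Spry2 response at 1 h turned from 0.57 to -0.35 with that baseline, and its difference from WT from 0.08 to -0.84 (adjusted p = 6.14e-08). The levels at 1 h, which need no baseline, were lower for both genes, as given above.

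RSKi47 inhibits RSK1/2, kinases activated by ERK1/2. At 1 and 2 h it went with lower Spred1 and Spred2, and Spry2 at 1 h was near its WT level. Of the 4 genes, 1 was higher without LPS (53% of all genes called), 1 lower at 0.5 h (48.2%), 3 lower at 1 h (52.8%), and at 2 h 1 higher and 2 lower (52.1%). The medians were -0.51 at 1 h and -0.20 at 2 h, against 0.00 and 0.02 over all genes. The summed linear value of 5 fibroblast and stroma genes was 41.5 to 683 in RSKi47 cells without LPS and 33.9 to 160 at 1 h, against 16.6 to 30.6 in WT cells at 1 h, with Dcn and Pdgfra at -0.86 and -0.57. The neutrophil and precursor sum at 1 h was 205 to 343. At 2 h the stroma sum was 40.4 to 90.6 against 16.8 to 22.5 in WT cells. The neutrophil and precursor sum was then 240 to 385 against 84.5 to 211. The endothelial sum was 431 to 449 at 0.5 h and 279 to 397 at 1 h, against 155 to 237 and 132 to 228 in WT cells, with Kdr again the 1 gene that reached 10. The part of any of these in the results was not tested.

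Spred1 gave 12.59, 12.70, 12.67 and 12.36 at 1 h and 13.30, 13.34, 13.27 and 12.89 at 2 h with RSKi47. Spred2 gave 9.11, 8.87, 8.62 and 8.67 at 1 h and 8.71, 8.53, 8.63 and 8.26 at 2 h. All of these libraries were below those of WT cells at the same time. Spred1 was lower by 0.60 on the log2 scale at 1 h (-0.60 ± 0.07, SE, adjusted p = 1.07e-11) and by 0.57 at 2 h (-0.57 ± 0.08, adjusted p = 1.34e-09). Spred2 was lower by 0.51 (-0.51 ± 0.09, adjusted p = 1.31e-06) and 0.79 (-0.79 ± 0.10, adjusted p = 5.58e-11). Without replicate 4 the differences were -0.52 and -0.46 at 1 h and -0.46 and -0.70 at 2 h. RSKi47 cells without LPS had been in the inhibitor for less time than those given LPS, and no group without LPS had it for longer. In RSKi47 responses of any gene, LPS and longer time in the inhibitor thus cannot be told apart. Measured from these cells without LPS, the responses of both Spred genes were also smaller than in WT cells. For Spred1 they differed by -0.56 (adjusted p = 3.86e-05) and -0.53 (adjusted p = 6.01e-05) at 1 and 2 h, and for Spred2 by -0.42 (adjusted p = 0.0294) and -0.70 (adjusted p = 2.53e-05). The Spred2 call at 1 h was lost without WT replicate 4, 5 or 6 or RSKi47 replicate 2, 3 or 4, with adjusted p from 0.0653 to 0.12, and when only the compared groups were fitted (0.0983). With WT replicates 7 to 9 as control the Spred2 call at 1 h (-0.22, adjusted p = 0.854) was lost, and against the 1 WT library of that set at 2 h the differences were -0.40 for Spred2 and -0.42 for Spred1, neither of them a call.

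Spry1 gave 7.00, 7.11, 7.09 and 7.18 at 1 h with RSKi47, all below WT, with a difference of -0.52 ± 0.13 (SE, adjusted p = 0.000325) and a response smaller by 0.81 (-0.81, adjusted p = 0.000997). The response difference was -0.72 (adjusted p = 0.0554) with WT replicates 7 to 9 as control, and without RSKi47 replicate 4 the level differed by -0.55. Without LPS it gave 4.48, 4.69, 4.48 and 4.38, a difference of 0.29 (adjusted p = 0.044) that was lost without WT replicate 6 (adjusted p = 0.056), 7 (0.0668) or 9 (0.09) and without RSKi47 replicate 1 (0.0656), 2 (0.17) or 3 (0.0671), and with WT replicates 4 to 6 as control (0.21, adjusted p = 0.208), no filter on low values (0.0616) or quantile normalization (0.12). Spry2 gave 9.04, 8.67, 8.56 and 8.57 at 1 h, around the WT values, with a difference of 0.08 (95% interval -0.08 to 0.25, adjusted p = 0.396). It was lower at 0.5 h (-0.39, adjusted p = 0.000185), at 8.46, 8.42 and 8.41, and higher at 2 h (0.42, adjusted p = 4.99e-05), at 7.55, 7.56, 7.57 and 7.14, of which the lowest lay among the WT values. Without replicate 4 these differences at 1 and 2 h were 0.13 and 0.52. Its fall by 2 h was smaller than in WT cells, with a difference of responses of 0.53 (adjusted p = 0.000513). Longer time in the inhibitor cannot be told apart from LPS here either. In responses, 3 of the 4 genes were lower at 1 h (5.54% of all genes), 1 was higher and 2 lower at 2 h (21%), and none was called at 0.5 h (0.0251%), where 1 had an unadjusted p below 0.05. The level of Spred1 at 0.5 h (-0.16, adjusted p = 0.0817) was called without WT replicate 5 (-0.21, adjusted p = 0.0256) or RSKi47 replicate 4 (-0.16, adjusted p = 0.0496), or with quantile normalization (-0.23, adjusted p = 0.00568). With WT replicates 7 to 9 as control, calls at 0.5 h were gained for Spred1 (-0.31, adjusted p = 0.00181) and Spred2 (-0.31, adjusted p = 0.0169), and without LPS for Spry2 (-0.23, adjusted p = 0.0466) and Spred2 (-0.27, adjusted p = 0.0254).

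**Figure D4:**
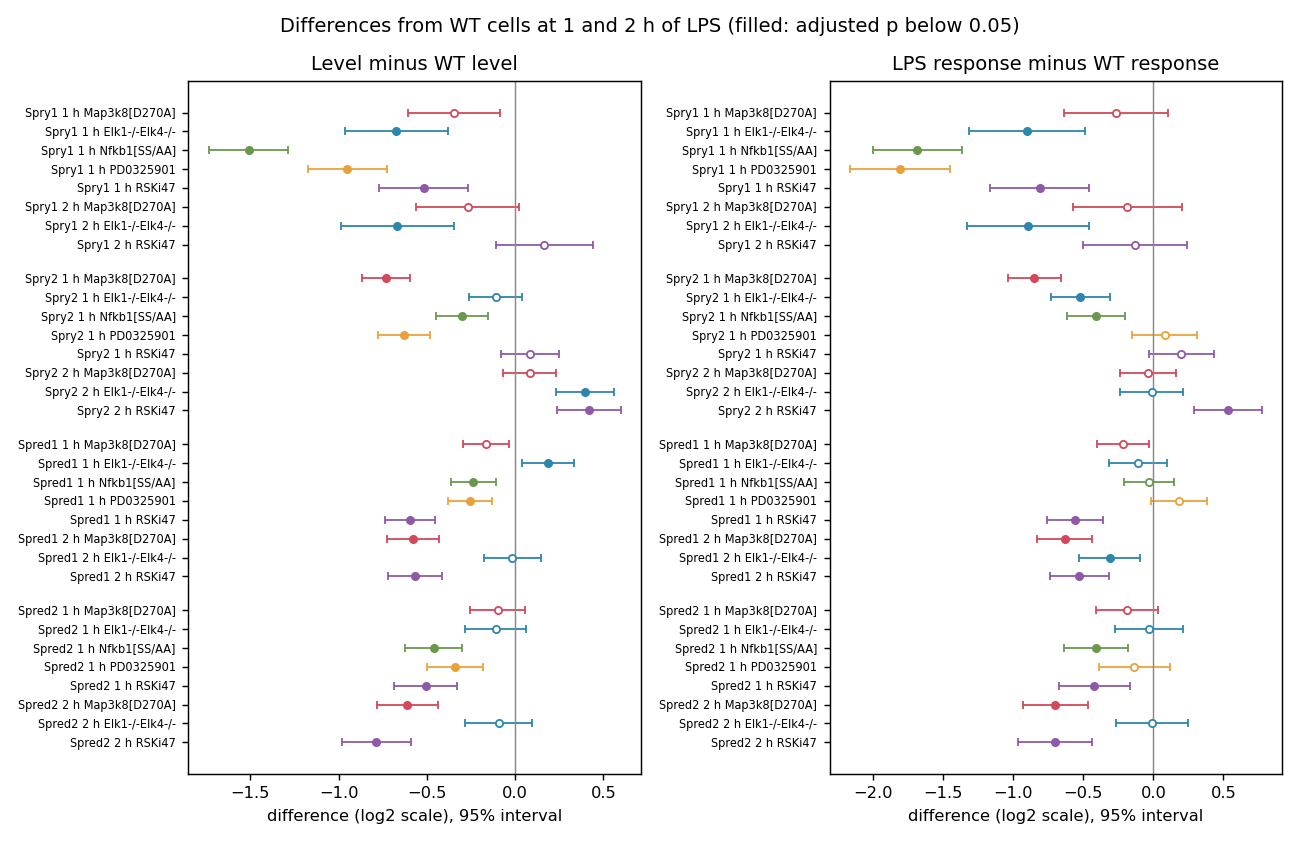
Difference from WT cells (horizontal axis, log2 scale, with 95% intervals) of the level (left) and of the LPS response (right) of Spry1, Spry2, Spred1 and Spred2 at 1 and 2 h in the 5 arms (vertical axis). Filled points have an adjusted p below 0.05; in the level panel Spry1 at 1 h lies farthest to the left with Nfkb1[SS/AA] (-1.51) and PD0325901 (-0.95), and both Spred genes lie left of 0 with RSKi47 at both times.

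The arms were also compared with each other at the same LPS time. The labels do not say which arms were run together, so a difference between experiments and one between arms cannot be told apart here. At 1 h, Spry1 was lower with PD0325901 than in Map3k8[D270A] cells by 0.60 on the log2 scale (-0.60, adjusted p = 9.38e-06), and Spry2 differed by 0.10 (95% interval -0.05 to 0.25, adjusted p = 0.28). Spred2 was the other gene called, at -0.24 (adjusted p = 0.0121), so that 2 of the 4 genes were lower (40.7% of all genes called). The Spred2 call was lost when PD0325901 replicates were averaged in pairs (-0.24, adjusted p = 0.0658). Spred1 became a call when only the compared groups were fitted (-0.09, adjusted p = 0.038). In Nfkb1[SS/AA] against Map3k8[D270A] cells 1 was higher and 2 lower (5670 of 11971 genes, 47%). Spry1 differed by -1.16 (adjusted p = 2.67e-15), Spred2 by -0.36 (adjusted p = 0.0001) and Spry2 by 0.43 (adjusted p = 7.03e-07).

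Against Map3k8[D270A] cells, Elk1-/-Elk4-/- cells had 2 genes higher and 1 lower at 1 h (53.3%). Spry2 was higher by 0.62 (adjusted p = 6.24e-10) and Spred1 by 0.35 (adjusted p = 2.17e-05), and Spry1 was lower (-0.32, adjusted p = 0.0244). That Spry1 call was lost without Map3k8[D270A] replicate 2 (adjusted p = 0.0687) or Elk1-/-Elk4-/- replicate 1 (0.0596), or with the replicate block (0.0965). At 2 h, 3 were higher and 1 lower (51.2%), with Spred1 at 0.56 (adjusted p = 9.94e-11), Spred2 at 0.52 (adjusted p = 8.07e-07), Spry2 at 0.32 (adjusted p = 0.000817) and Spry1 at -0.40 (adjusted p = 0.00569). The Spry1 call was lost when only the compared groups were fitted (adjusted p = 0.0892).

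RSKi47 cells against Map3k8[D270A] cells had 1 gene higher and 2 lower at 1 h (49.8%). Spry2 was higher by 0.82 (adjusted p = 1.52e-14), and Spred1 and Spred2 were lower (-0.43 and -0.41, adjusted p = 2.3e-07 and 8.49e-05). At 2 h 2 were higher (50.6%), Spry1 by 0.43 (adjusted p = 0.00282, and 0.0832 when only the compared groups were fitted) and Spry2 by 0.34, and Spred1 differed by 0.01 (95% interval -0.13 to 0.15). Spred2 differed by -0.18 (adjusted p = 0.0945), which became a call without Map3k8[D270A] replicate 3 (-0.21, adjusted p = 0.0441) or RSKi47 replicate 1 (-0.24, adjusted p = 0.0339). RSKi47 against PD0325901 cells at 1 h had 2 higher and 1 lower (53.9%). Spry2 was higher by 0.72 (adjusted p = 2.28e-12), Spry1 by 0.43 (adjusted p = 0.00252), and Spred1 was lower (-0.34, adjusted p = 2.65e-05). Spred2 differed by -0.17 (adjusted p = 0.11), a call without RSKi47 replicate 1 (-0.26, adjusted p = 0.0156) or with the replicate block (-0.16, adjusted p = 0.0352).

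The order of the 25 group means differed from gene to gene. For Spry1 the 6 groups at 1 h of LPS were the 6 highest, from WT (7.62 ± 0.21, SD) to Nfkb1[SS/AA] (6.10 ± 0.25), and the 7 lowest were the groups without LPS other than PD0325901 for 40 and 70 min. Of the 24 steps between neighbours in this order, 7 were larger than the larger SD of the pair. Spry2 was highest in Elk1-/-Elk4-/- cells at 0.5 h (9.12 ± 0.03) and lowest in WT cells at 2 h (7.04 ± 0.11), with 6 of 24 steps larger than the SD. Spred1 ran from 13.77 ± 0.10 in WT cells at 2 h to 11.91 ± 0.05 with PD0325901 for 70 min (4 of 24 steps), and Spred2 from 9.32 ± 0.07 in WT cells at 1 h to 8.53 ± 0.20 with RSKi47 at 2 h (2 of 24 steps).

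Over the 25 group means, which share libraries' scaling and LPS times, Spred1 and Spred2 had a Pearson correlation of 0.68, Spry1 and Spred2 of 0.56, Spry1 and Spred1 of 0.49, and Spry1 and Spry2 of 0.08. The genes with the most similar pattern to Spry1 were Stk35 (r = 0.96), Sde2 (0.95) and Zfp622 (0.95). For Spry2 these were Stk17b (0.90), Ap5m1 (0.89) and Cep120 (0.89), for Spred1 Rap1b (0.97), Gpbp1 (0.97) and Smndc1 (0.97), and for Spred2 Pla2g4a (0.82), Mmp10 (0.79) and Adora2b (0.79). For Spry4 they were Sparcl1 (0.96), Olig1 (0.96) and Mest (0.96).

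Other genes of the pathway give the setting. Of 18 ERK output and feedback genes, 15 were tested, and at 1 h 11 were lower and 1 higher in Map3k8[D270A] cells, with a median of -0.76. In Elk1-/-Elk4-/- cells 9 were lower and 2 higher (median -0.37), in Nfkb1[SS/AA] cells 12 and 1 (-1.04), with PD0325901 11 and 0 (-1.07), and with RSKi47 7 and 3 (-0.23). Medians over all genes at that time were between -0.01 and 0.01, and the shares of all genes called, against which these and the following counts are to be read, were 9.79%, 53.4%, 42.5%, 35.7% and 52.8% in the same order of arms. Errfi1, a feedback inhibitor of the EGF receptor, was lower by more than any Sprouty or Spred gene in Map3k8[D270A] cells (-1.73, adjusted p = 8.77e-13) and was lower with RSKi47 (-1.20, adjusted p = 1.79e-10). Dusp5, an ERK phosphatase, differed by -1.06, -1.03, -2.04 and -1.43 in Map3k8[D270A], Elk1-/-Elk4-/-, Nfkb1[SS/AA] and PD0325901 cells, and Dusp6, the cytoplasmic ERK phosphatase, by -1.12 and -1.07 in the latter pair. Egr1, a ternary complex factor target, differed by -3.24, -4.04, -3.06 and -4.22 in the same 4 arms and by 1.01 with RSKi47. Dusp2, Fosl1, Ier3 and Phlda1 were each lower by at least 1 in several arms, with differences from -2.08 to -1.01. Of 15 genes of the core cascade, all tested, 2 were lower in Map3k8[D270A] cells, 10 lower and 1 higher in Elk1-/-Elk4-/- cells, where 2 of the 10 are the deleted genes Elk1 and Elk4 themselves, 6 lower and 1 higher in Nfkb1[SS/AA] cells, 3 lower with PD0325901, and with RSKi47 7 lower and 1 higher.

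Of 28 partners and targets of the Sprouty and Spred proteins (adaptors, Ras and Raf proteins, neurofibromin), all tested, none was called in Map3k8[D270A] cells at 1 h (median -0.02, with 9.79% of all genes called). In Elk1-/-Elk4-/- cells 10 were higher and 11 lower (median 0.04, with 53.4% of all genes called). With PD0325901 7 were higher and 6 lower (-0.04, with 35.7%), and in WT cells LPS raised 14 and lowered 3 by 1 h (median 0.14, with 46.8%). The single partner with a difference of at least 1 was Cav1, higher with RSKi47 (1.26, adjusted p = 1.7e-06). Among 11 genes of receptors and ligands, namely growth factor receptors, Vegfa and the LPS receptor gene Tlr4, 9 were tested. Fgfr1 (1.74) and Met (1.88) were higher with RSKi47, Kit was higher in Elk1-/-Elk4-/- cells (1.04), and Vegfa was lower in Elk1-/-Elk4-/- cells (-1.10) and with PD0325901 (-1.62). Stromal RNA with RSKi47 and neutrophil and precursor RNA in Elk1-/-Elk4-/- cells are described above, and their part in these values was not tested.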

How the data were processed

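Mouse BMDM RNA was sequenced with single-end, strand-specific reads. Per the labels, in the submitters' processing notes, the authors used STAR (2.5.1b), RSEM (1.2.29) and DESeq2 (1.10.1), and the methods, which name RefSeq genes of mm10, give later versions of STAR and RSEM. The values the authors deposited are normalized log2 values, made by a transformation not given in the sources used here. The counts behind them are not used here, so depth is unknown and precision comes from replicates, whose p-values measure only the spread between these samples. A single value of 57.73 (Fosb, RSKi47 replicate 1 at 1 h), above a limit of 25, was set missing.

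Comparisons used limma 3.58.1 (R 4.3.3) without a trend, with a mean per group and Benjamini-Hochberg adjustment. A fit of the 62 libraries of WT, Map3k8[D270A] and Elk1-/-Elk4-/- cells tested the 11884 genes that reached 10 on the linear scale in 4 of them. A fit of all 119 libraries, used for the other arms and for comparisons between arms, tested the 11971 genes that did so in 3. In data simulated for the Map3k8[D270A] comparison at 1 h over 11884 genes, 89 of 95 genes changed by 0.5 and 102 of 105 changed by 1 were called, and 7 of 11684 unchanged genes. The simulated libraries varied independently, without the replicate sets and shared deviations of the real ones, so these rates need not hold for the data.

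The genes and lists were chosen with earlier results of these data known. Named were the 5 genes, Spry3 and Spred3, list genes with a difference of at least 1 at 1 h (at most 8 a list), and the 3 genes most like each member over group means. Samples with the same number within WT cells deviated together at every pair of times (correlations over genes from 0.164 to 0.79), and likewise in Nfkb1[SS/AA] cells (0.145 to 0.672). Map3k8[D270A] (0.124 to 0.759) and RSKi47 cells (0.109 to 0.697) did so between rest and each LPS time, so these numbers pair each LPS time with rest in these 4 arms. Between arms, samples with the same number did not deviate together in general, and nothing in the labels links those numbers. Map3k8[D270A] and RSKi47 cells at 2 h came closest (0.124 to 0.416). Some other pairs of groups were also all positive, such as Map3k8[D270A] at 2 h with RSKi47 for 10 min (0.0487 to 0.252). WT with Map3k8[D270A] cells without LPS were all negative (-0.398 to -0.2). Alternatives changed the filter, normalization, fitted libraries, block, WT control set and PD0325901 baseline, and left out each culture. Promoter windows and positions are those of RefSeq, GRCm38.p6.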

Additional observations from a re-analysis of the deposited data

Results flagged for a closer look

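In 12 of 100 sets of 4 to 6 libraries (a gene in a group), the gap between 1 library and its nearest neighbour took up an unusually large part of the range of the set (Dixon's test), which chance alone gives in about 1 in 20 sets. The sets are not independent, since genes share libraries, and a pair of libraries accounts for 6 of the 12. Replicate 2 of Nfkb1[SS/AA] cells at 1 h was far from the rest for 3 genes, at 12.6 for Spred1 (others 12.9 to 13.1), 8.25 for Spred2 (8.85 to 9.09) and 0.564 for Spry4. Replicate 4 of RSKi47 cells at 2 h was far for 3 genes, at 7.14 for Spry2 (7.55 to 7.57), 12.9 for Spred1 (13.3) and 0.454 for Spry4. These libraries also stood farthest from their groups over all genes. Spry1 in Elk1-/-Elk4-/- cells at 0.5 h was 5.17 in replicate 3, against 5.53 to 5.60. Spry2 at 0.5 h was 9.10 in WT replicate 9, against 8.70 to 8.84, and 8.81 in Nfkb1[SS/AA] replicate 1, against 8.65 to 8.70. Spred2 with PD0325901 at 0.5 h of LPS was 8.94 in replicate 2, against 8.83 to 8.84. Spry4, below the level required for testing, was 0.511 in Elk1-/-Elk4-/- replicate 1 at 0.5 h and 0.537 in RSKi47 replicate 1 without LPS.

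The LPS response differed from that of WT cells by a test of the difference itself in 18 cases. In Map3k8[D270A] cells these were Spry2 at 1 h (-0.850) and Spred1 (-0.632) and Spred2 (-0.701) at 2 h. In Elk1-/-Elk4-/- cells they were Spry1 (-0.902) and Spry2 (-0.521) at 1 h, and Spry1 (-0.895) and Spred1 (-0.310) at 2 h. In Nfkb1[SS/AA] cells they were Spry1 (-1.68), Spry2 (-0.408) and Spred2 (-0.409) at 1 h. With PD0325901 they were Spry1 at 0.5 h (-1.0) and 1 h (-1.81). With RSKi47 they were Spry1 (-0.811), Spred1 (-0.560) and Spred2 (-0.420) at 1 h, and Spry2 (0.531), Spred1 (-0.529) and Spred2 (-0.701) at 2 h. In the RSKi47 cases LPS and longer time in the inhibitor cannot be told apart.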

How the results depend on the processing

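Of 3756 values under alternatives, 3648 stayed on the same side of the threshold, among them 130 that were called in neither fit and changed sign, 71 calls were lost, 34 were gained and 3 turned direction. The 3 came from taking PD0325901 for 10 min as the resting state, which gave 0.86 for the Spry1 response at 0.5 h, -0.35 for the Spry2 response at 1 h, and -0.84 for its difference from WT. Counts of calls are over the 4 genes and all times. Requiring a log2 difference of at least 1 left 5 of 10 WT responses, 0 of 3 Map3k8[D270A], 0 of 8 Elk1-/-Elk4-/-, 1 of 6 Nfkb1[SS/AA], 0 of 4 PD0325901 and 0 of 8 RSKi47 calls against WT, and 0 of 5 with PD0325901 without LPS. It left 0 of 3, 0 of 4, 1 of 3, 2 of 2 and 0 of 6 response differences in Map3k8[D270A], Elk1-/-Elk4-/-, Nfkb1[SS/AA], PD0325901 and RSKi47 cells, and between arms 0 of 2 for PD0325901, 1 of 3 for Nfkb1[SS/AA], 0 of 8 for RSKi47 and 0 of 7 for Elk1-/-Elk4-/-. A minimum of 0.69, the natural logarithm of 2, left 6, 1, 0, 1, 1, 1 and 3 in the first 7 of these, 2, 2, 1, 2 and 2 response differences in the same order, and 0, 1, 2 and 0 between arms.

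The replicate block gave 5 calls against WT for Map3k8[D270A] and 3 for Nfkb1[SS/AA], where Spred1 at 1 h was -0.12 (adjusted p = 0.102), although these numbers did not pair samples between those arms and WT (correlations between WT and Map3k8[D270A] from -0.541 to 0.0388). Within arms it changed 1 LPS response call, that of Spred2 in Map3k8[D270A] cells at 2 h (-0.14, adjusted p = 0.0226). With WT replicates 7 to 9 alone as control, 1 response difference was left for Elk1-/-Elk4-/-, 1 for Nfkb1[SS/AA] and 2 for RSKi47, all 2 h values resting on 1 WT library, and with WT replicates 4 to 6 1 of 2 for PD0325901. DMSO against WT, with no call, had 1 with those WT replicates or a filter at 50, and 0 to 1 when each culture was left out. PD0325901 replicates averaged in pairs left 1 of 2 calls between arms, losing Spred2. Fitting only the compared groups lost 9 calls and gained 2. The causes were not tested. Without counts, what depth limits cannot be stated, and Spry4 did not reach the level required for testing.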
